A study of Mus musculus with 6 samples.

Results

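The 10 genes described here encode subunits of the machinery that cuts a new transcript at its 3′ end and hands it to poly(A) polymerase: Cpsf1, Cpsf2, Cpsf3 and Cpsf4 of the cleavage and polyadenylation specificity factor (CPSF), Nudt21, Cpsf6 and Cpsf7 of cleavage factor I (CFIm), and Cstf1, Cstf2 and Cstf3 of the cleavage stimulation factor (CstF). They were taken by gene symbol, and all of their transcript records were kept, 75 of 141196 transcripts and 10 of 52962 genes in the deposited table. Poly(A) RNA of mouse cerebral cortex was read directly by nanopore sequencing in 3 Fmr1 knockout (KO) and 3 wild type (WT) samples, all of C57BL/6 strain. The labels do not describe the knockout allele, the age of the mice or whether each sample is another animal, so the spread between samples may be technical. The study asks how FMRP, the RNA-binding protein lost in the knockout, bears on tail length. Fmr1 itself had 10.9, 11.8 and 8.22 CPM (tail reads scaled by library size) in KO libraries, against 41.7, 45.1 and 46.4 CPM in WT libraries.

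Reads with a measured tail numbered 3540416, 2404074 and 3443862 in KO libraries, against 3214196, 3621378 and 3849077 in WT libraries. Markers of cortical excitatory neurons summed to between 4542 and 4791 CPM in KO libraries, against 3832 to 4339 CPM in WT libraries. The 5 choroid plexus markers summed to 12.6 to 26.1 CPM in KO libraries, against 33.3 to 836 CPM in WT libraries, and these 2 of 9 marker lists had genotypes that did not overlap. Their part in the values below was not tested. In bulk tissue, fewer cells of a type and less RNA per cell cannot be told apart.

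CPSF recognises the hexamer AAUAAA, or the weaker AUUAAA, a short way upstream of the cut. Within it, Cpsf4 is a zinc finger protein that contacts the hexamer, Cpsf1 is the scaffold, Cpsf3 is the endonuclease that cuts, and Cpsf2 is a catalytically inactive relative of Cpsf3. CFIm binds UGUA upstream of the site through Nudt21, while CstF binds U- and GU-rich RNA downstream of it through Cstf2. The level of several of these proteins is known from cultured cells to shift which of several poly(A) sites a gene uses.

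The transcripts of these genes carry such signals themselves. The sequences below are from GENCODE M21 transcripts on GRCm38 (mm10), on the transcript strand. They are written as DNA with the hexamer in capitals and up to 12 bases on each side. Each shows the AATAAA nearest the annotated 3′ end within the last 50 bases, or ATTAAA where no AATAAA was found there. Sequences are given for the Cstf3 pair, whose ends lie far apart, and for Cpsf4, which has the weaker hexamer. Also given are Cpsf3-204 and the Cstf2 pair, discussed below, and Nudt21.
Cstf3-202 (chr2:104611368-104611397, plus strand): cacactcaagaaAATAAAgctttgttaata
Cstf3-201 (chr2:104665393-104665422, plus strand): tcctttgaaaggAATAAAaggacctcaaaa
Cpsf4-202 (chr5:145182010-145182039, plus strand): tctatgaggttgATTAAAaagcttgttttt
Cpsf3-204 (chr12:21314802-21314831, plus strand): ttctgttcttcaAATAAAataaccttagtt
Cstf2-201 and Cstf2-207 (chrX:134086791-134086819, plus strand): tgtcgtggattcAATAAAtattttaaaag
Nudt21-201 (chr8:94015500-94015529, minus strand): cactgttatttcAATAAAaatatttaaaac

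The 2 Cstf3 windows lie in different parts of the gene, while Cstf2-201 and Cstf2-207 share 1 annotated end. Of 15839 transcripts tested for tail length with a sequence, 67.4% held AATAAA and 18.7% ATTAAA in their last 50 bases, searched on the transcript strand only. The coding transcript Cpsf3-201 and both well-read transcripts of Cpsf1 held neither. TGTA, the DNA form of the Nudt21 motif, was in the last 100 bases of 56.1% of the same transcripts. Among the named transcripts it occurred 2 times in Cstf3-201, Cpsf1-201, Cpsf1-219 and Cpsf3-201, and 1 time in Cstf3-202, Cstf2-201, Cstf2-207, Nudt21-201, Cpsf6-201 and Cpsf7-201. It was not in that window of Cpsf2-201, Cstf1-201, Cpsf3-204 or the Cpsf4 transcripts. These matches describe the annotated ends, which need not be the ends used in cortex.

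The factors were expressed at low to moderate levels in cortex. Each read is 1 RNA molecule, so CPM was not divided by length. The order of mean levels in WT libraries was Cpsf7 (44.2 CPM), Nudt21 (43.6), Cstf2 (41.7), Cstf3 (35.9), Cpsf6 (34.4), Cpsf2 (28.7), Cpsf3 (26.4), Cpsf1 (26.01), Cstf1 (22.3) and Cpsf4 (13.8 CPM). Cpsf4 lay below every other member in all 6 libraries, while neighbours in the upper part of the order lay within each other's spread. The levels stood between percentile 33.8 (Cpsf4) and percentile 69.6 (Cpsf7) of the 12543 genes tested for abundance in WT libraries. Over all 6 libraries 6294 tail reads fell on these genes, between 229 on Cpsf4 and 926 on Nudt21.

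Their tails leaned to the long side. Per gene, as the read-weighted mean over isoforms, 8 of 10 lay above the median of 11323 genes in WT libraries and 4 of 10 above percentile 80. The median over the 10 genes was 160 ± 8.98 nt in KO libraries and 162 ± 8.44 nt in WT libraries (SD, n = 3 each), beside medians over all genes of 142 ± 2.16 nt in KO and 145 ± 2.67 nt in WT. The members' tails spanned a wide range: Cpsf6, Cstf2 and Cpsf4 stood at percentiles 97.9, 97.5 and 97.4, while Nudt21 and Cstf1 stood at 34.1 and 39.2. The long and the short tails did not follow the complexes, since CFIm holds both Cpsf6 and Nudt21 and CstF holds both Cstf2 and Cstf1.

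**Figure D1:**
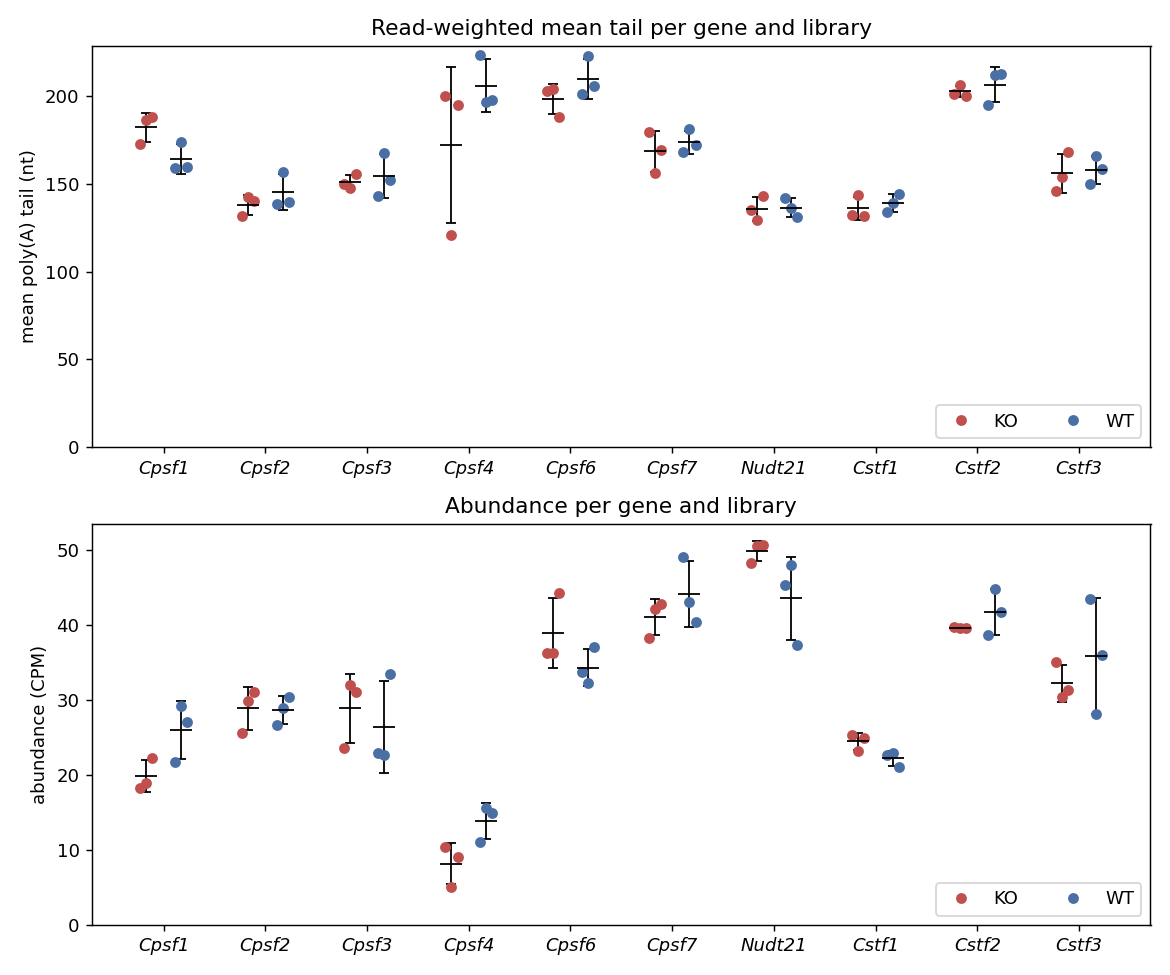
Mean poly(A) tail in nt (upper panel) and abundance in CPM (lower panel) of the 10 genes; each point is 1 library, KO left of WT, with the mean and SD of 3 libraries in black. Cpsf4 is lowest in abundance in all 6 libraries, and its KO tails spread from 121 to 200 nt.

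No member passed the test for tail length between KO and WT. limma called 0 of the 10 genes, with 0% of 11323 genes called, and 1 member had an unadjusted p under 0.05, where 6.55% of genes did. The read-weighted tail was shorter on average in KO for 9 of 10 members, beside 61.7% of all genes tested. With each library centred on its median over all genes, 7 of 10 were shorter, beside 47.5% of all genes. The median log2 change of the members was -0.031, and that of all genes -0.017. The KO and WT libraries overlapped for every member, while 11.7% of all genes had groups fully apart.

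Among CPSF genes, Cpsf1 was the one member with a longer mean tail in the knockout. Its tails were 173, 186 and 188 nt in KO libraries, against 159, 174 and 159.6 nt in WT libraries. The lowest KO value lay below the highest WT value, so the groups overlapped by 1 library each. This gave log2 0.15 ± 0.059 (SE), with a limma adjusted p = 0.75 and an unadjusted p = 0.0391. Cpsf4 had 200.4, 121 and 195 nt in KO libraries, against 224, 197 and 198 nt in WT libraries, and the KO value of 121 nt rested on 12 reads. Its 95% interval ran from a log2 change of -0.74 to 0.16, the widest among the members, and its log2 change of -0.29 became -0.057 without KO replicate 2.

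The endonuclease Cpsf3 and its inactive relative Cpsf2 had close means in both genotypes. Cpsf3 averaged 151 ± 4.01 nt in KO and 154 ± 12.5 nt in WT (SD, n = 3 each). Cpsf2, which has a single annotated transcript, had 132, 142 and 140.1 nt in KO libraries, against 139, 157 and 139.9 nt in WT libraries. WT replicate 2 was the high one for both genes.

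In CFIm, the RNA-binding subunit Nudt21 had 135, 129 and 143 nt in KO libraries, against 142, 136 and 131 nt in WT libraries. Its log2 change of -0.0063 had a 95% interval from -0.13 to 0.12, and no library stood apart. Its larger partners had longer tails. Cpsf6 had 203, 204 and 188 nt in KO libraries, against 201, 223 and 206 nt in WT libraries, and Cpsf7 averaged 169 ± 11.8 nt in KO and 174 ± 6.65 nt in WT. The interval of the log2 change was -0.23 to 0.066 for Cpsf6 and -0.20 to 0.11 for Cpsf7.

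In CstF, Cstf2 had 202, 207 and 200.2 nt in KO libraries, against 195, 212 and 213 nt in WT libraries. The scaffold subunit Cstf3 averaged 156 ± 11.2 nt in KO and 158 ± 7.81 nt in WT, and Cstf1 averaged 136 ± 6.78 nt in KO and 139 ± 5.12 nt in WT. All 3 had log2 changes between -0.032 and -0.019, less than 1 SE from 0.

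Abundance likewise gave no call among the members. edgeR called 0 of 10 genes, where 129 of 12543 genes (1.03%) were called, and 2 members had an unadjusted p under 0.05, where 12.9% of all genes did. Of the 10, 5 had a log2 change below 0, beside 50.6% of all genes. KO and WT libraries did not overlap for 3 members, beside 17.3% of all genes: KO was higher for 2, as for 9.12% of all genes, and lower for 1, as for 8.16%.

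Cpsf4 had the largest difference. Its level was 10.3, 5.06 and 9.10 CPM in KO libraries, against 11.04, 15.6 and 14.9 CPM in WT libraries. All KO libraries lay below all WT libraries, on 35, 12 and 31 reads in the KO libraries. On the log2 scale this came to -0.72 ± 0.22 (SE), with an edgeR adjusted p = 0.13, and its 95% interval ran from -1.17 to -0.26. Without WT replicate 1 it passed (log2 -0.84, adjusted p = 0.0379), and the other alternatives with an adjusted p gave between 0.0583 and 0.39.

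Cpsf1 was the other member with an unadjusted p under 0.05. It had 18.3, 18.98 and 22.3 CPM in KO libraries, against 21.8, 29.2 and 27.05 CPM in WT libraries. KO replicate 3 lay above WT replicate 1, with log2 -0.39 ± 0.15 and an edgeR adjusted p = 0.25. On all reads recovered from RPM the change was smaller, at log2 -0.24 (unadjusted p = 0.071 in edgeR). Tail reads came to 68.2 ± 2.52% of those reads for Cpsf1 in KO and 80.5 ± 8.76% in WT. A lower KO mean was not particular to Cpsf1, since all transcripts together averaged 75.8% in KO and 80.6% in WT. Over all transcripts the groups overlapped, with 77.3% in KO replicate 3 and 76.2% in WT replicate 1. The part of these shares in the result was not tested. Of the other CPSF subunits, Cpsf2 averaged 28.9 ± 2.88 CPM in KO and 28.7 ± 1.87 CPM in WT. Cpsf3 averaged 28.9 ± 4.65 CPM in KO and 26.4 ± 6.15 CPM in WT.

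Nudt21 and Cstf1 were the members with every KO library above every WT library in tail reads, and both overlapped in the deposited RPM. Nudt21 had 48.3, 50.6 and 50.8 CPM in KO libraries, against 45.4, 48.1 and 37.3 CPM in WT libraries, with log2 0.20 ± 0.11 (edgeR, adjusted p = 0.46). The gap between the nearest KO and WT libraries was small, and WT replicate 3 was the low one, without which the change was 0.092. Cstf1 had 25.3, 23.2 and 24.9 CPM in KO libraries, against 22.7, 22.9 and 21.1 CPM in WT libraries (log2 0.15 ± 0.14, adjusted p = 0.70). With limma on log2(RPM + 1), its change was -0.026, so the direction for Cstf1 depended on the measure.

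The remaining CFIm and CstF genes overlapped between genotypes. Cpsf6 averaged 38.9 ± 4.65 CPM in KO and 34.4 ± 2.49 CPM in WT, and Cpsf7 averaged 41.1 ± 2.45 CPM in KO and 44.2 ± 4.41 CPM in WT. Cstf2 was tightly grouped in the knockout, at 39.8, 39.64 and 39.62 CPM, against 38.6, 44.8 and 41.7 CPM in WT libraries. Cstf3 had 35.1, 30.4 and 31.4 CPM in KO libraries, against 43.6, 28.1 and 36.1 CPM in WT libraries, which spread widely. Their intervals reached from -0.42 (Cstf3) to 0.43 (Cpsf6) on the log2 scale.

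**Figure D2:**
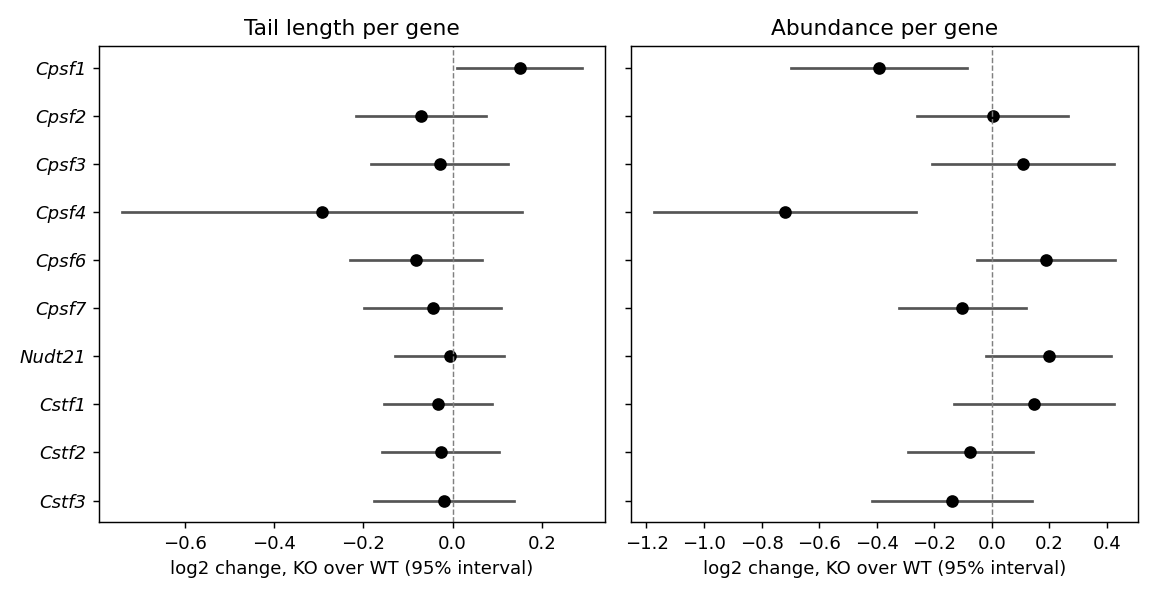
Log2 change of KO over WT per gene with its 95% interval, for tail length (left, limma) and abundance (right, edgeR). All intervals cover 0 but those of Cpsf1 in both panels and Cpsf4 in abundance, and none passed after adjustment over all genes.

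The reads of these genes were divided among isoforms unevenly. Of 75 annotated transcripts 45 held a tail read in any library, and 12 held at least 10 in each of the 6 libraries, together 89.8% of the members' reads. Transcripts annotated as protein coding held 83.3% of the reads, those with a retained intron 12.9% and those annotated as targets of nonsense-mediated decay (NMD, which degrades messages with an early stop codon) 3.21%. Cpsf6, Cpsf7, Nudt21 and Cstf1 each had 1 coding transcript with at least 90.7% of their reads, and Cpsf3 had 1 with 86.4%. Cpsf1, Cpsf4, Cstf2 and Cstf3 were split.

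**Figure D3:**
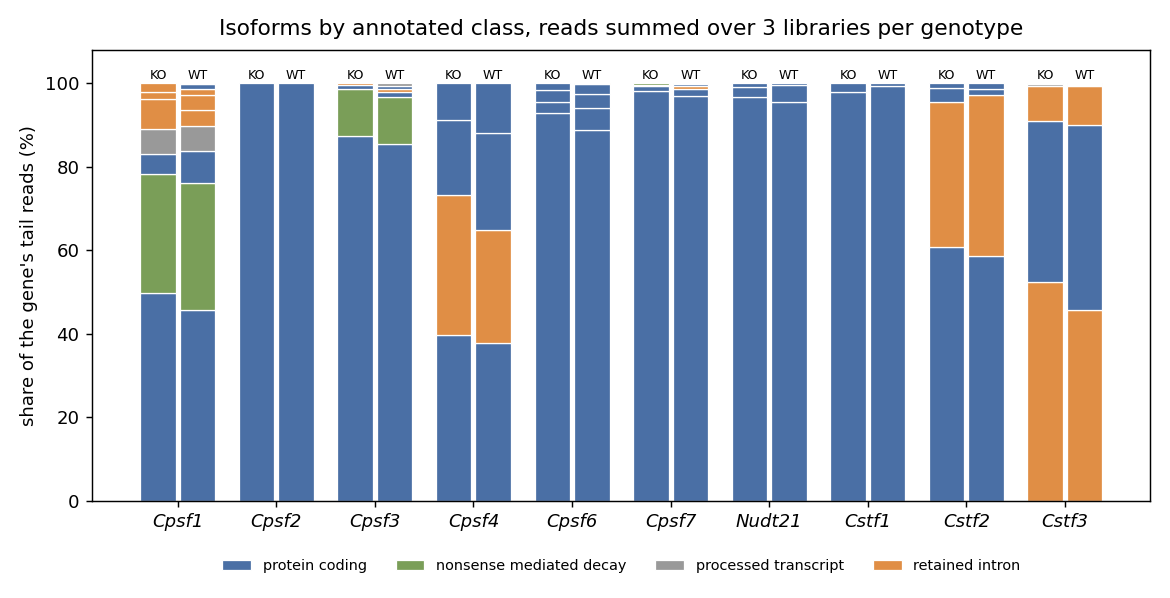
Share of each gene's tail reads, in percent, held by each annotated transcript, summed over 3 libraries per genotype (KO left of WT); colours give the GENCODE class and white lines separate transcripts. Retained intron transcripts hold large shares in Cpsf4, Cstf2 and Cstf3.

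For Cstf3 the transcript with most reads was not the full-length message. Cstf3-202 (chromosome 2, 104590532 to 104611406) has 3 exons, runs into intron 3 of the 20 introns of the coding transcript and ends there, 54023 bases before the end of Cstf3-201 (104590523 to 104665429). It held 332 reads over the 6 libraries, and Cstf3-201 held 285. Use of a poly(A) site inside an early intron of this gene is known in mammals. Direct RNA reads start at the tail, and the 2 transcripts share no 3′ sequence, so their reads are told apart from the first base.

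Reads assigned to transcripts with an annotated end in intron 3 were then counted together, a measure chosen after the values were seen. Cstf3-202 and Cstf3-206, which ends at another base of that intron, together held 57.98%, 62.5% and 62.6% of Cstf3 tail reads in KO libraries. In WT libraries they held 52.8%, 51.5% and 60.0%. The 95% Wilson intervals of single libraries spanned 49.0% to 72.8% in KO and 41.9% to 67.7% in WT, and cover counting error only. The groups overlapped, at 61.0 ± 2.64% in KO and 54.8 ± 4.59% in WT (two-sided exact permutation p = 0.2, where 0.1 is the smallest that 3 against 3 allows). For Cstf3-202 alone the shares were 52.9%, 54.2% and 50.5% in KO libraries, against 46.5%, 40.8% and 48.6% in WT libraries. All KO libraries lay above all WT libraries, with a difference of 7.25 percentage points (exact permutation p = 0.1, adjusted over 9 genes p = 0.45). Shares were computed for member genes only, so how often other genes had shares apart is not known. From the deposited RPM the difference was 2.99 points for Cstf3-202 and 1.97 points for Cstf3-202 and Cstf3-206 together.

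The full-length Cstf3-201 had a log2 abundance change of -0.34 ± 0.19 (edgeR, adjusted p = 0.59), which became -0.16 without WT replicate 1 and -0.15 on reads recovered from RPM, and Cstf3-202 one of 0.056 ± 0.19 (adjusted p = 0.95). Over all transcripts edgeR called 103 of 19933 (0.517%) and none of the 16 member transcripts tested, of which 3 had KO and WT fully apart, beside 15.6% of all transcripts: KO was higher for Nudt21-201, as for 8.07% of all transcripts, and lower for Cpsf1-219 and Cstf2-207, as for 7.56%. The change was below 0 for 10 of 16, beside 50.9% of all transcripts. No member transcript had an unadjusted p under 0.05, where 10% of all transcripts did. In the authors' deposited table, 40 member transcripts have an unadjusted p, the lowest is 0.1003 and none is under 0.05, which 1.22% of 56942 transcripts are.

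**Figure D4:**
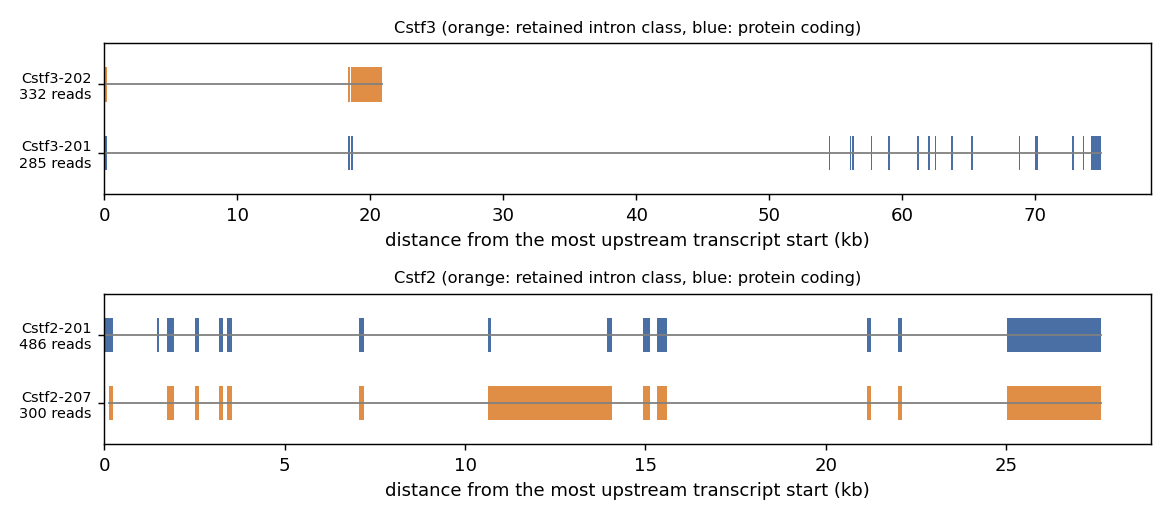
Exons (boxes) and introns (lines) of the well-read transcripts of Cstf3 and Cstf2 by distance in kb from the most upstream start, with tail reads over 6 libraries. Cstf3-202 stops in intron 3, while Cstf2-207 keeps intron 8 and shares its end with Cstf2-201.

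Cstf2 showed the other kind of split. Cstf2-207 (chromosome X, 134059334 to 134086819) keeps intron 8 of the 13 introns of Cstf2-201, lacks its exon 2 and ends at the same base as Cstf2-201, with which it shares the last 3445 bases. It held 300 reads, 36.8% of the gene's total, beside 486 for Cstf2-201. Reads shorter than the shared stretch cannot tell this pair apart, and read lengths were not used here. The share of Cstf2-201 was 60.7 ± 0.74% in KO and 58.5 ± 1.31% in WT (exact permutation p = 0.1, adjusted p = 0.45). Here too the groups were apart, narrowly, with 60.0% in KO replicate 3 and 59.8% in WT replicate 2, again without a background from other genes.

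The tail of Cstf2-207 was 213, 182 and 193 nt in KO libraries, against 224, 212 and 229.7 nt in WT libraries. Only KO replicate 1 reached the WT range. With log2 -0.18 ± 0.075 it did not pass (limma, adjusted p = 0.84, unadjusted p = 0.0489). Its partner Cstf2-201 had 194, 222 and 202 nt in KO libraries, against 175, 215 and 205 nt in WT libraries, with log2 0.059 ± 0.096.

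Of the 12 member transcripts tested for tails none was called, where limma called 0% of 16168, and Cstf2-207 was the 1 with an unadjusted p under 0.05, where 5.84% of all transcripts were. Cpsf1-219, annotated as an NMD target, was the 1 of 12 with groups fully apart, beside 10.9% of all transcripts, 3.41% with KO higher and 7.53% with KO lower. Tails were shorter on average in KO for 7 of 12, beside 58.8% of all transcripts. Cpsf1-219 had 189, 186 and 206 nt in KO libraries, against 173, 182 and 164 nt in WT libraries (log2 0.16 ± 0.068, limma adjusted p = 0.84), on 12 to 31 reads per library. The coding Cpsf1-201 had 157, 165 and 184 nt in KO libraries, against 175, 168 and 151 nt in WT libraries, with no order between the groups. The pair shares its last 4157 bases, so that nearly full-length reads are needed to separate them. The abundance of Cpsf1-219 was lower in every KO library than in any WT library (log2 -0.49 ± 0.25; edgeR, adjusted p = 0.53).

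All Cpsf4 isoforms, the most-read Cpsf4-202 included, and the minor isoforms of Cpsf3 had few reads and stood outside the tail test per transcript. Cpsf4-203 keeps intron 6 and held 29.3% of Cpsf4 reads, with tails of 227, 120.5 and 231 nt in KO libraries, against 280, 235 and 224 nt in WT libraries. The value of 120.5 nt rested on 2 reads. The coding transcripts Cpsf4-202 and Cpsf4-205 held 38.4% and 21.4% of the reads. Cpsf4-202 had 199, 133 and 173 nt in KO libraries, against 183, 204 and 192 nt in WT libraries, and Cpsf4-205 had 144, 93.3 and 152 nt in KO libraries, against 162, 164 and 180.5 nt in WT libraries. For Cpsf4-205 every KO library lay below every WT library. KO replicate 2 was the lowest for all of these, with 7, 2 and 3 reads for Cpsf4-202, Cpsf4-203 and Cpsf4-205. Cpsf4-201 (10.9% of reads) had no read in KO replicate 2.

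Cpsf3-204, annotated as an NMD target, ends 221 bases before Cpsf3-201 and held 11.1% of Cpsf3 reads. That end lies in no intron of Cpsf3-201, and how well reads separate this pair was not tested. The tails of Cpsf3-204 were 104, 150.1 and 135 nt in KO libraries, against 170, 189 and 182 nt in WT libraries. The groups did not overlap, on 6, 8 and 15 reads in KO and 9, 11 and 12 reads in WT libraries. Of 18 member transcripts with 3 or more reads in each library, 3 were apart in this way (Cpsf3-204, Cpsf4-205 and Cpsf1-219), beside 10.8% of 23127 transcripts. Fitted with transcripts of 3 or more reads per library, it had log2 -0.49 ± 0.14 and did not pass (limma, adjusted p = 0.77, unadjusted p = 0.0128). Cpsf3-201 had 154, 143 and 159.9 nt in KO libraries, against 140.5, 165 and 148 nt in WT libraries.

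Isoforms of 1 gene were then compared with each other inside each library, a comparison chosen after the values were seen. Cstf3-202 had a longer mean tail than Cstf3-201 in 5 of 6 libraries, by 19.5 ± 20.3 nt on average (SD, n = 6). Cpsf4-203 was longer than Cpsf4-202 in 5 of 6, by 38.9 ± 36.4 nt, Cpsf1-219 longer than Cpsf1-201 in 5 of 6, by 16.8 ± 11.3 nt, and Cstf2-207 longer than Cstf2-201 in 3 of 6, by 6.76 ± 31.0 nt. Cpsf4-205 was shorter than Cpsf4-202 in all 6, by 31.4 ± 16.3 nt. At their 3′ ends, Cpsf4-205 shares 998 bases and Cpsf4-203 shares 1076 bases with Cpsf4-202. Reads shorter than the shared stretch cannot tell these pairs apart. None of the 6 pairs passed a two-sided exact sign-flip permutation test adjusted over the pairs. The lowest exact permutation p was 0.0313 for Cpsf4-205, the smallest that 6 libraries allow (adjusted p = 0.125), and Cstf3-202 had p = 0.0938 (adjusted p = 0.14).

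Retained intron transcripts over all genes, members included, ran the same way more often than not. Among 597 with at least 10 reads in each library and a coding partner, 71.2% had a longer mean tail than that partner, 32.3% did so in all 6 libraries, and the median difference was 7.80 nt. The 3 retained intron transcripts compared in pairs above, of Cstf3, Cpsf4 and Cstf2, had a longer mean tail than their partner. None of these 3 was longer in all 6 libraries. Cstf3-206, a retained intron transcript outside those pairs, was longer than Cstf3-201 in all 6 libraries, on 6 to 16 reads per library. Its tails were 267, 190 and 275 nt in KO libraries, against 190, 271 and 252 nt in WT libraries. Cpsf1-216, another retained intron transcript outside the pairs, was also longer than Cpsf1-201 in all 6 libraries, on 2 to 7 reads per library.

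The difference between Cpsf3-204 and Cpsf3-201 was -50.1, 7.29 and -25.2 nt in KO libraries, against 29.9, 24.5 and 33.6 nt in WT libraries. The genotypes did not overlap (exact permutation p = 0.1, the smallest possible; adjusted over 6 pairs p = 0.30). The difference between Cpsf1-219 and Cpsf1-201 was likewise apart, at 31.7, 20.3 and 22.7 nt in KO libraries, against -1.82, 14.7 and 12.9 nt in WT libraries (exact permutation p = 0.1, adjusted p = 0.30). The other 4 pairs overlapped between genotypes. Over all pairs of an isoform and the most-read coding isoform of its gene, each with at least 2 reads per library, 10.1% of 11272 had genotypes apart, and 2 of 12 did among the members.

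**Figure D5:**
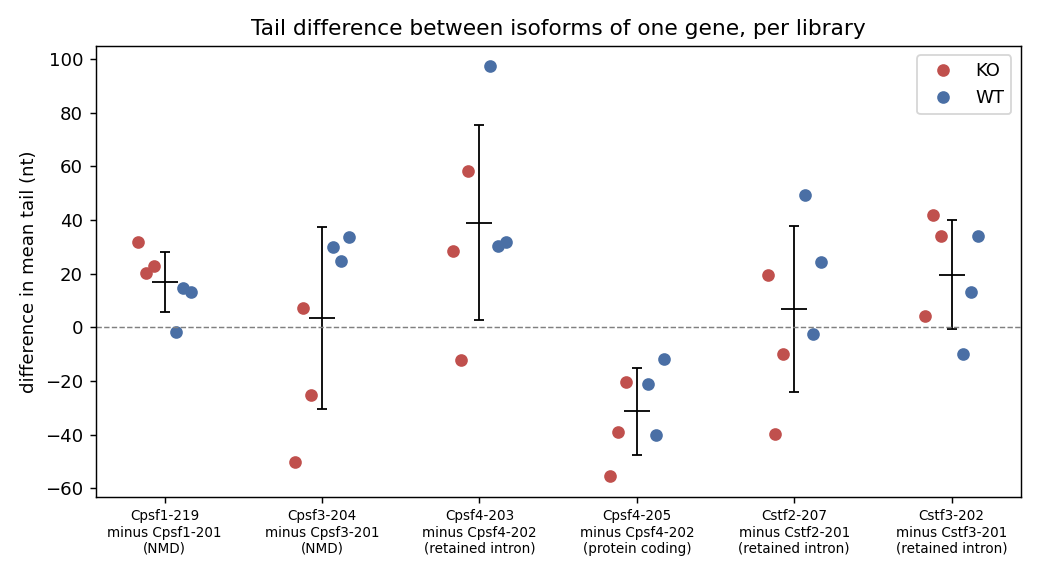
Difference in mean tail, in nt, between an isoform and the most-read coding isoform of its gene; each point is 1 library, KO left of WT, with the mean and SD over 6 libraries in black. Cpsf4-205 lies below 0 in all 6 libraries, KO lies below WT for Cpsf3-204, and KO lies above WT for Cpsf1-219.

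The other genes of the pathway showed no calls either. Of 19 gene records for 18 further 3′ end processing genes, 18 had enough reads for each test, and Cpsf4l had 2 reads in all. For tails limma called 0 of 18, with 12 shorter on average in KO (median log2 -0.018), and edgeR called 0 of 18 for abundance, with 6 lower (median log2 0.041). Tails were apart between genotypes for 3 of 18, all shorter in KO (3.22% of all genes had KO longer and 8.44% KO shorter). Abundance was apart for 1 of 18, Ssu72, with KO higher, where 17.3% of all genes were apart and 9.12% had KO higher.

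Those 3 are named after their values were seen. Fip1l1, which tethers poly(A) polymerase to CPSF, had tails of 143, 144 and 139.6 nt in KO libraries, against 161, 155 and 156 nt in WT libraries (log2 -0.14 ± 0.040; limma, adjusted p = 0.70). The kinase Clp1 had 119, 112 and 123 nt in KO libraries, against 145, 127 and 160.4 nt in WT libraries, on 153 reads in all (adjusted p = 0.70). The phosphatase Ssu72 had 125, 128 and 128 nt in KO libraries, against 133, 133 and 129 nt in WT libraries (adjusted p = 0.86), and its abundance was 142 ± 2.82 CPM in KO and 126 ± 8.60 CPM in WT (edgeR, adjusted p = 0.34).

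Among those with most reads, Papola, the main nuclear poly(A) polymerase, had tails of 177 ± 3.83 nt in KO and 176 ± 9.15 nt in WT, and Cstf2t, the autosomal copy of Cstf2, had 144 ± 5.57 nt in KO and 149 ± 2.61 nt in WT. Rbbp6 had 155 ± 15.3 nt in KO and 156 ± 6.96 nt in WT. The phosphatase subunit Ppp1cb had 146 ± 3.04 nt in KO and 145 ± 2.50 nt in WT. The 2 records of Ppp1ca had 121 ± 1.94 and 118 ± 3.89 nt in KO, against 119 ± 2.48 and 118 ± 3.26 nt in WT, and reads may be split between them. Cstf2 tails, at 203 ± 3.33 nt in KO and 207 ± 10.2 nt in WT, were longer than those of Cstf2t in every library.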

How the data were processed

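Per the file headers, the authors deposited, for each transcript and library, the mean tail length in nt, the read count behind it, an abundance in RPM, and their DESeq2 comparison with a base mean signal, log2 change, its error, a test score and a p-value. Without giving their roles, the submitters' processing notes list mm10, Salmon 1.5.2, minimap2 2.17, DESeq2 and SAMtools 1.9. Which program measured tails is not stated there. Deposited RPM values were whole multiples of 1 read, within 0.01, for 99.9% of values in WT replicate 1 and 100% elsewhere. Tail reads and reads recovered from RPM were assigned apart: for Cpsf3 in WT replicate 3 the first came to 101.6% of the second.

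Tails were compared as log2(nt + 1) with limma 3.58.1 (variance trend) where each library held at least 10 tail reads, per transcript and per gene (read-weighted mean). Tail-read counts were tested with edgeR 4.0.16 (TMM, filterByExpr, quasi-likelihood). Adjusted p-values of limma and edgeR are by Benjamini-Hochberg over all features tested, with a threshold of 0.05. CPM were TMM-scaled. Both tests recovered changed genes in simulated data. The planted changes were larger than the main estimate of any member, so power for changes of the members' size was not measured. Isoform shares and pairs used exact permutation tests in SciPy 1.17.1, adjusted by the same method over the member genes or the pairs tested. Transcripts were matched to GENCODE M21, which held 97.6% of identifiers by version and may not be the authors' release. All 10 members and their isoforms with 10 reads per library or 10% of the gene's reads are named, besides the 6 most-read other genes. Members and lists were chosen with earlier results of these data known. Alternatives covered the pseudocount, read minimum, centring, weights, size factors, filter, tool, RPM in place of tail reads, a replicate block and leaving out each library.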

Additional observations from a re-analysis of the deposited data

How the results depend on the processing

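Over all features, weights by tail reads called 22 transcripts and 28 genes for tail length, where limma without weights called 0, and no member was among them. For abundance per gene, 129 calls became 81 with DESeq2, 249 without a filter, 40 with limma on log2(RPM + 1) and 57 to 206 without single libraries. Per transcript, 103 calls became 180, 34 and 44 to 163 under the last 3 of these settings, and 171 with the replicate block, which called 92 genes and no member. Samples with equal replicate numbers did not deviate together (r between -0.0653 and 0.0484 over features), and not every sample correlated best with its own number, so the numbers were not taken as pairs. The count of members called was 0 throughout but for 1, Cpsf4 in abundance, without WT replicate 1 (range 0 to 1 without single libraries).

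Small changes of members, none of them called, turned sign. Without single libraries the log2 tail change per gene ran from -0.081 to 0.032 for Cpsf3, -0.093 to 0.0077 for Cpsf7, -0.073 to 0.028 for Cstf3 and -0.043 to 0.028 for Nudt21. Per transcript it ran from -0.026 to 0.085 for Cpsf1-201, -0.038 to 0.076 for Cpsf3-201, -0.092 to 0.0097 for Cpsf7-201, -0.029 to 0.12 for Cstf2-201, -0.015 to 0.12 for Cstf3-202 and -0.052 to 0.025 for Nudt21-201. For abundance it ran from -0.062 to 0.091 for Cpsf2 and -0.28 to 0.013 for Cstf3, and from -0.063 to 0.094 for Cpsf2-201, -0.28 to 0.42 for Cpsf3-204, -0.092 to 0.044 for Cstf2-201 and -0.15 to 0.22 for Cstf3-202. The tail difference ran from -2.70 to 14.04 nt for Cpsf3-204 minus Cpsf3-201 and from -1.71 to 16.1 nt for Cstf2-207 minus Cstf2-201, a comparison chosen after seeing the data. Centred by the sample median, log2 tail changes were 0.0091 for Nudt21-201, 0.015 for Nudt21 and 0.0019 for Cstf3, and with weights 0.0015 for Nudt21. For abundance of Cpsf2-201 they were 0.0013 with RLE size factors, 0.016 with DESeq2, 0.015 with no filter and 0.0063 with the replicate block. On reads recovered from RPM, abundance changes were 0.044 for Cpsf7-201, 0.071 for Cstf2-201, -0.0094 for Cstf3-202, -0.029 for Cpsf2 and 0.015 for Cpsf7. With limma on log2(RPM + 1) they were 0.0074 for Cpsf7-201, -0.020 for Cstf1-201, 0.023 for Cstf2-201, -0.038 for Cstf3-202, -0.071 for Cpsf2 and -0.026 for Cstf1. The cause was not tested.

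The difference in the members' median tail stayed within 1 SD of its -1.10 nt in each of its alternatives, at -5.28 to 3.64 nt without single libraries. Depth limits Cpsf4 most, with 12 to 35 reads per KO library, and isoforms under 10 reads.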
